A study of Homo sapiens with 24 samples.

Results

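This account covers the loss of WDR77 in androgen-treated LNCaP cells: 6 of the 24 RNA-seq libraries of the series, 3 from cells given siRNAs against WDR77 and then the synthetic androgen R1881 (siWDR77_R1881, sample numbers 10, 24 and 38) and 3 from cells given a non-targeting control siRNA and the same hormone (siCtrl_R1881, sample numbers 8, 22 and 36). The libraries were chosen by these labels and by no measured value. LNCaP is an established human prostate adenocarcinoma line that grows in response to androgen. Wells were seeded with 300000 cells, transfected, moved to medium without androgen, and treated for 48 h with 5 nM R1881. The series also holds the same siRNA arms with ethanol vehicle (siWDR77_vehicle and siCtrl_vehicle) and a separate study of cells transfected with a construct for WDR77-peptide 3 (P3) or with an empty vector (EV), each with R1881 or vehicle, 3 libraries a group. The labels call the libraries biological triplicates. All 6 came from cells that were transfected, starved of androgen and then given hormone, so that by the labels the 2 groups differ in the siRNA. The libraries of the 2 groups also differed in their trend with GC content, as given below. The siRNA sequences were not given in the sources used here, and effects of the siRNAs on other RNAs cannot be told apart from the loss of WDR77.

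WDR77, also called MEP50, is a WD-repeat protein that binds the arginine methyltransferase PRMT5 and presents substrates to it. The complex methylates arginines of histones and of the Sm proteins, which form the core of the splicing snRNPs. WDR77 is also known as a coregulator of hormone-dependent transcription in the prostate, where androgen drives kallikrein, lipid and secretory genes and, at high hormone, restrains the proliferation of LNCaP cells.

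Depth was 16876495 to 23241826 counts in the 6 libraries, and levels are CPM values with TMM-scaled library sizes. All 9 luminal prostate markers checked, among them KLK3, FOLH1, HOXB13, EPCAM, CDH1, KRT8 and KRT18, averaged above 1 CPM in both groups. Of 5 leukocyte markers, 3 had no count in siWDR77_R1881 and 4 had none in siCtrl_R1881, and the summed level of all 5 was at most 0.159 CPM in siWDR77_R1881 and at most 0.0547 CPM in siCtrl_R1881. Of 7 fibroblast markers, COL1A1 alone averaged above 1 CPM, and the 7 summed to 7.35 to 8.96 CPM in siWDR77_R1881 and to 9.96 to 11.8 CPM in siCtrl_R1881. Of the 4 endothelial markers, 1 (VWF) averaged above 1 CPM, and 3 had no count in either group. One library outside the comparison stands apart: siCtrl_vehicle 35 had 8.40% of its counts on mitochondrial genes, against 5.39% and 5.85% in the other siCtrl_vehicle libraries, and a summed mitosis level of 862 CPM, against 1871 and 1852 CPM. It enters the 12-library fit through the shared estimate of spread, and the counts of the gene groups most affected are also given without it. Mitochondrial shares in the 6 libraries compared were 5.47% to 5.92% in siWDR77_R1881 and 5.45% to 5.84% in siCtrl_R1881.

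WDR77 mRNA was 15.6, 13.4 and 13.8 CPM in the siWDR77_R1881 libraries, against 63.7, 67.2 and 66.0 CPM in the siCtrl_R1881 libraries. Every knockdown library lay below every control library, by a wide margin. The log2 fold change was -2.20 ± 0.0932 (SE), a 4.61-fold lower level, with an adjusted p of 8.48e-14 by edgeR's quasi-likelihood test with Benjamini-Hochberg adjustment. The gene lies at chr1:111439890-111449376 on the minus strand (GRCh38, GENCODE 29), and its first 513 bases overlap ATP5PB on the opposite strand, which encodes a subunit of the mitochondrial ATP synthase. ATP5PB averaged 243 ± 12.3 CPM in siWDR77_R1881 and 242 ± 6.13 CPM in siCtrl_R1881 (SD, n = 3 each), with a log2 fold change of 0.01 ± 0.0550 and an adjusted p of 0.968.

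Of 17893 genes tested, 698 were called higher after knockdown (3.9%) and 593 lower (3.31%), at an adjusted p under 0.05, so that 7.22% were called in either direction. Most of these changes were small: 29 of the higher genes and 43 of the lower genes changed by at least 2-fold. Without adjustment, 3802 genes had a p under 0.05. The 3 knockdown libraries all lay above the 3 control libraries in 2685 genes (15%) and all below them in 2160 genes (12.1%). The total of 1291 called genes was 586 without siCtrl_R1881 22, 735 without siCtrl_R1881 36, 749 without siCtrl_R1881 8, 752 without siWDR77_R1881 24 and 737 without siWDR77_R1881 38, and 1097 without siWDR77_R1881 10. It was 1983 when the vehicle library 35 was left out, with 877 higher (4.75%) and 1106 lower. No called gene changed sign in the 14 alternatives run on this comparison, where it was tested; 1279 of the 1291 were tested in the fit on the 6 libraries alone, and of the vehicle libraries 35 alone was left out.

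**Figure D1:**
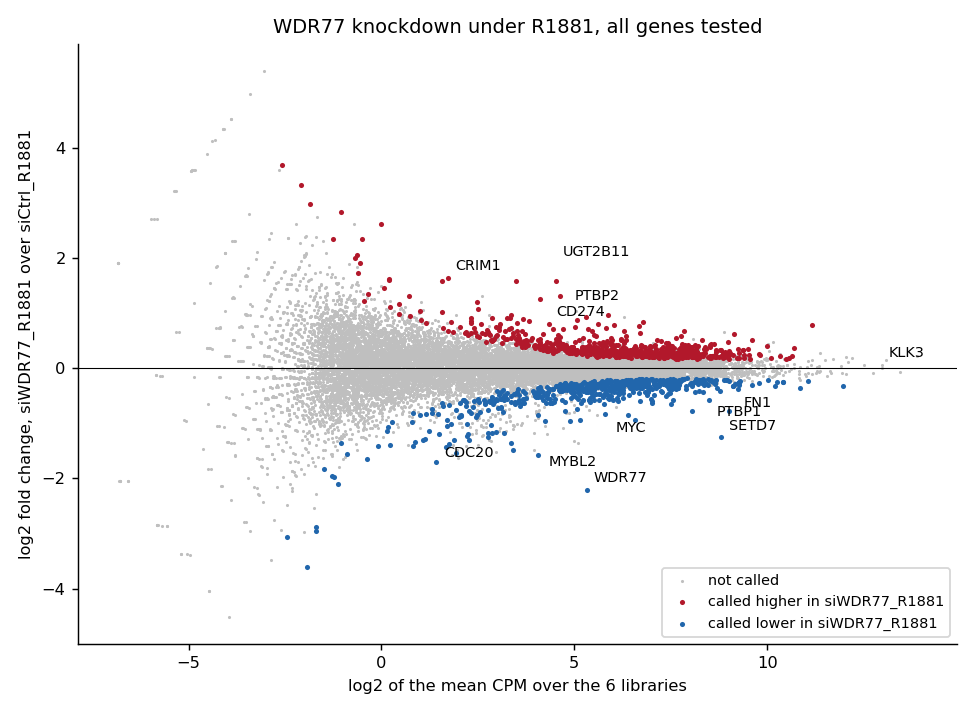
Log2 fold change of siWDR77_R1881 over siCtrl_R1881 (vertical) against the log2 mean CPM of the 6 libraries (horizontal) for the 17893 genes tested, with called genes in color. WDR77 lies at -2.20, and most of the 698 higher and 593 lower genes lie within 2-fold of no change.

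Apart from WDR77, the smallest adjusted p belonged to SETD7, the lysine methyltransferase that acts on histone H3 and on several transcription factors. It and the other genes of this paragraph were chosen after their values were seen, and PTBP1 is also a member of the list of SR proteins and hnRNPs. SETD7 was 247.5, 281 and 272 CPM in siWDR77_R1881, against 614, 637 and 643 CPM in siCtrl_R1881, so that the groups were far apart. Its log2 fold change was -1.24, with an adjusted p of 4.39e-12. PTBP2, the neuronal polypyrimidine tract binding protein, was 34.3, 34.4 and 36.6 CPM in siWDR77_R1881, against 13.5, 15.1 and 14.1 CPM in siCtrl_R1881, a 2.47-fold rise (adjusted p 7.65e-10). PTBP1, its widely expressed paralog and a splicing repressor known to lower PTBP2 through exon skipping, was 272, 259 and 241 CPM in siWDR77_R1881, against 340, 344.5 and 345 CPM in siCtrl_R1881. It fell by 0.41 on the log2 scale (SE 0.0600, adjusted p 0.000119), and no library of one group reached the range of the other. CLSTN1, a membrane protein that links cargo to kinesin, averaged 196 ± 2.27 CPM in siWDR77_R1881 and 334.5 ± 15.4 CPM in siCtrl_R1881 (SD, n = 3 each). MLX, the obligate partner of the glucose-sensing factors MondoA and ChREBP, averaged 60.2 ± 2.14 CPM in siWDR77_R1881 and 108 ± 5.49 CPM in siCtrl_R1881. CAP2, a regulator of actin, rose to 129 ± 1.57 CPM in siWDR77_R1881, against 75.7 ± 2.02 CPM in siCtrl_R1881. The adjusted p was 2.23e-08 for CLSTN1, 4.71e-08 for MLX and 4.54e-08 for CAP2. All 6 of these genes were also called in the same direction in the vehicle arm, where log2 fold changes were -1.56 for SETD7, 1.24 for PTBP2, -0.29 for PTBP1, -0.86 for CLSTN1, -0.89 for MLX and 0.73 for CAP2.

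**Figure D2:**
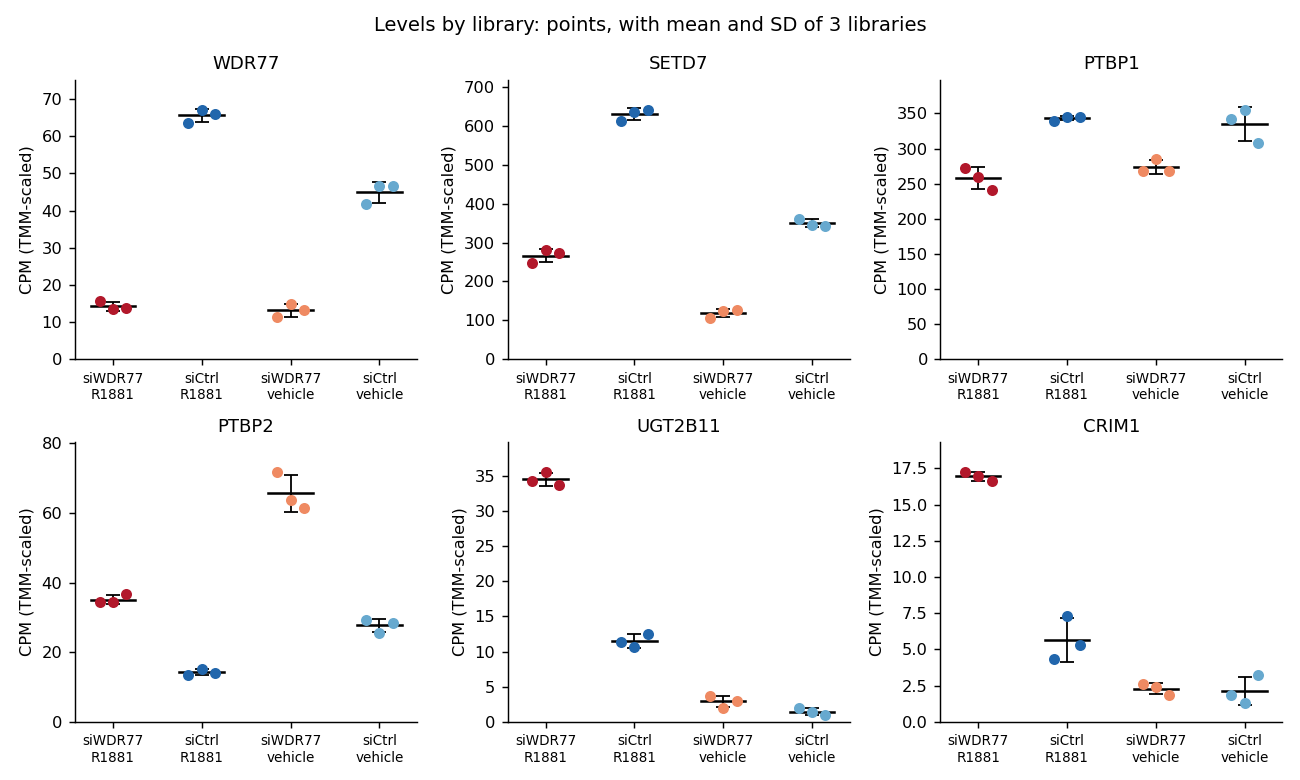
TMM-scaled CPM of 6 genes in each library of the siRNA study, with mean and SD of 3 libraries per group. WDR77, SETD7 and PTBP1 were lower and PTBP2 higher after knockdown with R1881 and with vehicle, whereas CRIM1 was 16.7 to 17.2 CPM in siWDR77_R1881, against 4.32 to 7.33 CPM in siCtrl_R1881, and averaged 2.29 CPM in siWDR77_vehicle and 2.12 CPM in siCtrl_vehicle.

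Most of the 15 largest rises, taken among called genes that reached 1 CPM on average and whose libraries did not overlap, were in weakly expressed genes. UGT2B11, an enzyme that glucuronidates steroids, was 34.3, 35.5 and 33.7 CPM in siWDR77_R1881, against 11.3, 10.7 and 12.5 CPM in siCtrl_R1881. That is a 3.00-fold rise (adjusted p 1.09e-06). CRIM1, a transmembrane protein that binds bone morphogenetic proteins, was 17.2, 17 and 16.7 CPM in siWDR77_R1881, against 4.32, 7.33 and 5.29 CPM in siCtrl_R1881, with a log2 fold change of 1.58 ± 0.215 (adjusted p 0.000139). The control libraries scattered more than the knockdown libraries, and none reached them. In the same UGT2B gene cluster on chromosome 4, the pseudogene UGT2B24P had a log2 fold change of 1.63, and UGT2B28, outside the 15, had one of 1.26 (adjusted p 1.1e-05). UGT1A1 (log2 fold change 1.62, call lost in 7 of 14 alternatives) and the pseudogene DNAJB3 (2.63, lost in 1) share their locus on chromosome 2 with the other UGT1A genes. Members of these families are near copies, so that reads may be split among them, and the strand setting of the counting was not given, so that DNAJB3 and the UGT1A genes it lies opposite to cannot be told apart. The remaining rises were in GLB1L3, ZFP69, ARHGEF28, RP5-1142J19.2, CCDC146, WAKMAR2, RP11-39H3.2, TMED11P, SAXO2 and KCNH6, each with a low level, at most 4.45 CPM on average in siWDR77_R1881. Among these, the call of SAXO2 was lost in 11 of 14 alternatives.

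WDR77 itself and 14 genes of cell division or low expression made up the 15 largest falls. E2F2, a transcription factor that drives entry into S phase, was 1.38, 1.11 and 1.22 CPM in siWDR77_R1881, against 4.51, 3.94 and 3.69 CPM in siCtrl_R1881 (log2 fold change -1.69, adjusted p 0.00604). E2F7, an atypical repressor of the same family, fell by 1.31. MYBL2, the B-MYB factor that activates mitotic genes, was 9.31, 9.43 and 6.57 CPM in siWDR77_R1881, against 23.4, 28.3 and 23.3 CPM in siCtrl_R1881 (log2 fold change -1.57, adjusted p 0.0386). The others with a known part in mitosis were the kinase AURKB, the centromeric histone CENPA, the anaphase activator CDC20, the kinetochore protein SKA1, the cohesin protector SGO1 and the kinesins KIF14, KIF15 and KIFC1. IQGAP3, FAM72A and the pseudogene IL9RP3 complete the set. E2F2, AURKB and CENPA kept their calls in all 14 alternatives, while MYBL2 and CDC20 lost theirs in 8 each, with fold changes that stayed between -1.66 and -1.42 for MYBL2 and between -1.56 and -1.37 for CDC20. The other falls lost their calls in 2 to 7 alternatives, SGO1 in 2 and KIF14 in 7.

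The fall extended across the division genes. Of 47 mitosis genes (kinetochore, spindle and checkpoint), 6 were called lower, 12.8% of the list, in a comparison where 3.31% of all genes were called lower. The list median was a log2 fold change of -1, against 0.03 over all genes tested, 46 of the 47 had a negative value, and in 42 the knockdown libraries all lay below the control libraries, a pattern found in 12.1% of all genes. Without the vehicle library 35, 39 of the 47 passed the test, where 6% of all genes were called lower, and in a fit on the 6 libraries alone 39 of 46 did, where the share was 6.6%. The count moved with the libraries used: 2 of the 47 passed when siCtrl_R1881 8, 22 or 36 or siWDR77_R1881 10 or 38 was left out, and 4 without siWDR77_R1881 24. Over all genes, those fits called 277 to 539 lower, of 18485 to 18536 tested. By DESeq2 27 of 47 passed, where 4.29% of all genes were called higher and 4.91% lower. The list median was -1.02 without library 35, -1.02 on the 6 libraries and -1.01 by DESeq2. The summed CPM of the list was 443, 513 and 436 in siWDR77_R1881, against 755, 826 and 802 in siCtrl_R1881. Since these are bulk libraries, fewer dividing cells and less of these RNAs per cell cannot be told apart.

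Several of these genes carry known cell cycle elements in their promoters, and 4 are shown because their transcripts were among the largest falls or because they represent the replication genes. The elements searched on both strands were the CHR (TTTGAA), the CCAAT box (CCAAT) and E2F sites spelled TTTCCCGC or TTTGGCGC, within 250 bases before the start. The letters below are the 150 bases before the start of each gene on its own strand, from RefSeq on GRCh38.p14, with matches in capitals and no 2 matches overlapping. The windows are chr2:26785906-26786055 (plus strand) for CENPA, chr1:43358831-43358980 (plus) for CDC20, chr1:23531234-23531383 (minus) for E2F2 and chr18:657503-657652 (plus) for TYMS.
CENPA: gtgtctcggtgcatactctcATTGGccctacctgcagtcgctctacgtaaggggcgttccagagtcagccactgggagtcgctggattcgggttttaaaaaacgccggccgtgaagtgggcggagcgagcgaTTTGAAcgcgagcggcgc
CDC20: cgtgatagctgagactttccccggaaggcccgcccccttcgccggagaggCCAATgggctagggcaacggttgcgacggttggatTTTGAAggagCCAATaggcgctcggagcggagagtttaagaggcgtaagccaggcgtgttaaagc
E2F2: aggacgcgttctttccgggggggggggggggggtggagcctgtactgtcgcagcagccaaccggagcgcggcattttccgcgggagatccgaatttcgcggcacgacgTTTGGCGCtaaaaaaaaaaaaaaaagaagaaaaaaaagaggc
TYMS: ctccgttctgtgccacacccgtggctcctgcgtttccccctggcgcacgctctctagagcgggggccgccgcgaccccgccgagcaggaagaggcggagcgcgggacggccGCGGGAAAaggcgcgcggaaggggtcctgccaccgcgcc

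CENPA has a reversed CCAAT box that starts 130 bases and a CHR that starts 18 bases before the start. CDC20 has its CHR at 65 bases with a CCAAT box on each side, at 100 and 55 bases. The E2F spelling stands 42 bases before the start of E2F2 and, on the other strand, 39 bases before that of TYMS. Of the 40 mitosis genes with a promoter in the table, 55% held the CHR spelling, against 13.6% of all 27305 promoters, and 72.5% held CCAAT, against 33%. An E2F spelling was found in 31.7% of the 41 replication promoters, against 1.96% of all. Among the promoters of all genes called lower, 7.68% of 456 held the CHR spelling, 35.3% CCAAT and 3.95% an E2F spelling. The shares were close to these among 564 promoters of genes called higher, at 6.03%, 36.9% and 3.19%. Of 30 promoters of genes called lower by at least 2-fold, 20% held the CHR spelling, 53.3% CCAAT and 16.7% an E2F spelling. The set of 27305 promoters is not limited to the genes tested here. These are matches of letters, not measured sites.

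CENPA transcript was 1.15, 1.22 and 1.32 CPM in siWDR77_R1881, against 2.67, 3.23 and 3.15 CPM in siCtrl_R1881 (log2 fold change -1.30 ± 0.285, adjusted p 0.00599). CDC20 was 5.82, 6.20 and 4.89 CPM in siWDR77_R1881, against 13.7, 18 and 15.3 CPM in siCtrl_R1881 (log2 fold change -1.48 ± 0.348, adjusted p 0.0406). AURKB averaged 1.74 ± 0.625 CPM in siWDR77_R1881 and 4.63 ± 0.889 CPM in siCtrl_R1881 (SD, n = 3 each). In none of these genes did a knockdown library reach the control range. SPC24, a subunit of the NDC80 kinetochore complex (log2 fold change -1.18), and KIF2C, a kinesin that takes microtubules apart (-1.18), were also called, and each lost its call in 6 of 14 alternatives.

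Of 48 DNA replication genes, 5 were called lower, where 3.31% of all genes were, with a list median of -0.46. TYMS, thymidylate synthase, was 3.10, 5.04 and 3.97 CPM in siWDR77_R1881, against 9.15, 9.96 and 9.67 CPM in siCtrl_R1881 (log2 fold change -1.26 ± 0.280, adjusted p 0.0218, call lost in 5 of 14 alternatives). CDC45, part of the replicative helicase, fell by 1.18, the licensing factor CDT1 by 0.57, and the polymerase delta subunits POLD1 by 0.42 and POLD2 by 0.20. The calls of CDC45, POLD1 and POLD2 were lost in 6, 5 and 7 of 14 alternatives, and that of CDT1 in none. In 38 of the 48 genes the knockdown libraries all lay below the controls. Without the vehicle library 35, 33 of the 48 passed the test, where 6% of all genes were called lower. Only 1 passed without siCtrl_R1881 22 or 36, and 2 passed without siCtrl_R1881 8 or any 1 of the 3 siWDR77_R1881 libraries. Over all genes, those fits called 277 to 539 lower, of 18485 to 18536 tested. The summed level was 1124 to 1263 CPM in siWDR77_R1881 and 1524 to 1639 CPM in siCtrl_R1881.

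Among 31 genes of homologous recombination and the Fanconi pathway, 3 were called lower (3.31% of all genes), among them BARD1 and RMI2, with log2 fold changes of -0.25 and -0.94, and the list median was -0.43. Without the vehicle library 35, 15 of the 31 passed (6% of all genes). In the list of E2F factors, G1 cyclins and CDK inhibitors, 7 of 29 fell, where 3.31% of all genes did. Cyclin D1 (CCND1) was 270, 263 and 266.5 CPM in siWDR77_R1881, against 310, 325 and 334 CPM in siCtrl_R1881 (log2 fold change -0.28, adjusted p 0.0016). Its partner kinase CDK4 averaged lower by 0.36 (adjusted p 0.00269), and the CDK inhibitors CDKN2C and CDKN2A fell by 0.79 and 0.57. Drivers and brakes of the G1 phase were both among the lower genes.

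**Figure D3:**
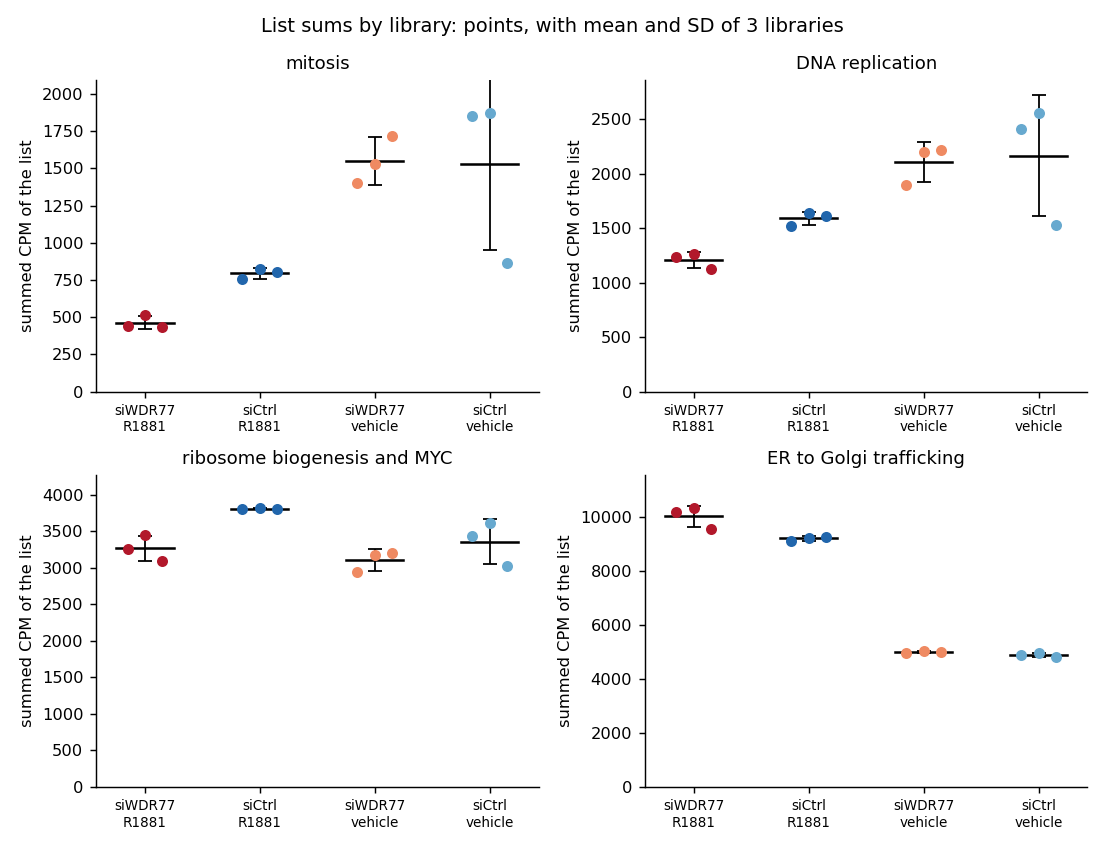
Summed CPM of 4 gene lists in each library of the siRNA study, with mean and SD of 3 libraries per group. The mitosis sum was 436 to 513 CPM in siWDR77_R1881, against 755 to 826 CPM in siCtrl_R1881, and the low siCtrl_vehicle point at 862 CPM is library 35.

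Where 3.31% of all genes were called lower, 12 of 33 were in the list of ribosome biogenesis genes and MYC, with MYC among the 12. So were 8 of 48 ribosomal protein genes. MYC, the transcription factor that promotes growth and ribosome synthesis, was 42.7, 45 and 32.5 CPM in siWDR77_R1881, against 64.0, 75.9 and 74.1 CPM in siCtrl_R1881. The groups did not overlap (log2 fold change -0.83 ± 0.146, adjusted p 0.00761). The ribosome biogenesis and MYC list had a median of -0.22 and 30 negative values, and 21 of its 33 genes were called lower without the vehicle library 35, where 6% of all genes were. FBL, the fibrillarin that methylates ribosomal RNA and is itself a substrate of arginine methylation, was 54.1, 59.4 and 53 CPM in siWDR77_R1881, against 82.2, 84.6 and 84.9 CPM in siCtrl_R1881 (log2 fold change -0.60, adjusted p 1.37e-05). BOP1, needed for the large subunit, fell by 0.49, BYSL by 0.37 and RRP12 by 0.29. Of the 48 cytosolic ribosomal protein genes, 46 had negative values, with a median of -0.10, and 15 were called lower without library 35 and 5 after the trend of each library with transcript GC content was smoothed out (GC smoothing). RPS2, the highest-ranked of them by adjusted p, was 1693, 1661 and 1515 CPM in siWDR77_R1881, against 2061, 2093 and 2060 CPM in siCtrl_R1881 (log2 fold change -0.35, adjusted p 0.000401). Many ribosomal protein genes have processed pseudogenes that may take a share of their reads.

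The classical androgen targets did not pass the test. KLK3, which encodes prostate-specific antigen, was 8328, 8699 and 7529 CPM in siWDR77_R1881, against 7646, 7997 and 7826 CPM in siCtrl_R1881, with overlapping groups (log2 fold change 0.07 ± 0.439, adjusted p 0.961). The related protease KLK2 averaged 582 ± 60.7 CPM in siWDR77_R1881 and 600.1 ± 9.49 CPM in siCtrl_R1881 (adjusted p 0.957). The fit takes its spread from all 12 libraries, and KLK3 varied widely in the vehicle groups, with 108, 188 and 206 CPM in siWDR77_vehicle, against 203, 204 and, in library 35, 52.6 CPM in siCtrl_vehicle. TMPRSS2, a membrane serine protease, averaged 3561 ± 66.0 CPM in siWDR77_R1881 and 3173 ± 306 CPM in siCtrl_R1881 (log2 fold change 0.17 ± 0.109, adjusted p 0.437). FKBP5, a cochaperone of steroid receptors, was 2733, 3036 and 3018 CPM in siWDR77_R1881, against 2153, 2487 and 2569 CPM in siCtrl_R1881 (log2 fold change 0.29 ± 0.138, adjusted p 0.283). For FKBP5 and TMPRSS2 the knockdown libraries all lay above the controls.

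Of 40 genes in a list of androgen-induced genes, 5 were called higher and 3 lower, where 3.9% and 3.31% of all genes were, with a median of 0.14 and 29 positive values. The knockdown libraries all lay above the controls in 16 of the 40 and all below them in 4. Without the vehicle library 35 the calls were 9 higher and 4 lower, where 4.75% and 6% of all genes were called. ORM1, an acute-phase glycoprotein, was 51.5, 58.9 and 44.2 CPM in siWDR77_R1881, against 23.2, 27.5 and 30.4 CPM in siCtrl_R1881, and had no count in any vehicle library of the siRNA study (log2 fold change 0.93 ± 0.121, adjusted p 0.000164). HPGD, which inactivates prostaglandins, rose by 0.55, and ACSL3, which activates long-chain fatty acids, rose by 0.37, to 1760 to 1991 CPM in siWDR77_R1881, against 1268 to 1558 CPM in siCtrl_R1881. AZGP1, a secreted lipid-mobilizing factor, fell by 0.37 and the stress-responsive NDRG1 by 0.25. Of 35 coregulators of steroid receptors, 4 were called higher and 2 lower (3.9% and 3.31% of all genes), with 2 and 1 after GC smoothing, and the acetyltransferase KAT2B, the p160 coactivators NCOA1 and NCOA3 and TRIM24 were the 4 that rose, by 0.46, 0.26, 0.26 and 0.22.

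A list of androgen-repressed genes gave 5 higher and 2 lower calls among 19 tested, where 3.9% and 3.31% of all genes were called. Its name does not hold for all members here, since UGT2B11 and UGT2B28 rose with hormone in the empty-vector cells of the other study, by 3.15 and 4.55 on the log2 scale. UGT2B17, which inactivates dihydrotestosterone and was strongly repressed there, by 4.88, was 15.5, 16 and 16.6 CPM in siWDR77_R1881, against 11.9, 10.8 and 11.5 CPM in siCtrl_R1881 (log2 fold change 0.49, adjusted p 0.000666). The chemokine receptor ACKR3 fell by 0.77, to 3.39 to 3.82 CPM in siWDR77_R1881, against 5.08 to 7.31 CPM in siCtrl_R1881.

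The hormone-responsive genes were also taken as a whole, from the empty-vector cells, which share no library with this comparison. Hormone changed 51.4% of genes there, 24.9% higher and 26.4% lower. Of 1262 genes that R1881 raised at least 2-fold, 1200 were tested here, and 144 were called higher after WDR77 knockdown (12%) and 13 lower (1.08%), where 3.9% and 3.31% of all genes were called. Their median log2 fold change was 0.14, and 71.4% had a positive value, against 54.7% of all genes. Of 1390 genes that R1881 lowered at least 2-fold, 1341 were tested, and 21 were called higher (1.57%) and 78 lower (5.82%), with a median of -0.16. Without the vehicle library 35, WDR77 knockdown gave 192 higher calls among the induced genes and 230 lower calls among the lowered genes, where 4.75% of all genes were called higher and 6% lower. Leaving out siCtrl_R1881 22 gave 86 and 30, siCtrl_R1881 36 gave 100 and 34, and siCtrl_R1881 8 gave 91 and 42. Leaving out siWDR77_R1881 10 gave 126 and 53, siWDR77_R1881 24 gave 88 and 40, and siWDR77_R1881 38 gave 105 and 25. Over all genes, the fits without siCtrl_R1881 22, 36 and 8 called 309, 418 and 355 higher and 277, 317 and 394 lower. Those without siWDR77_R1881 10, 24 and 38 called 558, 392 and 448 higher and 539, 360 and 289 lower. These fits tested 18485 to 18536 genes. The vehicle knockdown gave 28 higher and 4 lower calls among the induced genes, with a median of 0.05. Among the lowered genes it gave 5 higher and 7 lower calls, with a median of 0.02. In that arm far fewer genes were called at all, 0.682% of all genes higher and 0.844% lower. In the other study, P3_R1881 against EV_R1881 gave medians of -0.65 over the induced and 1.04 over the lowered genes, but those lists were drawn from the same EV_R1881 libraries and the values are given as a description only.

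Part of the secretory pathway genes rose, by small amounts. Of 35 tested genes of ER to Golgi trafficking, 10 were called higher, where 3.9% of all genes were, the median was 0.14, and 30 had positive values, as did 54.7% of all genes. After GC smoothing 4 of the 35 were called higher, where 2.94% of all genes were. SEC24B, a cargo-binding subunit of the COPII coat, was 180, 179 and 178 CPM in siWDR77_R1881, against 135, 135 and 141 CPM in siCtrl_R1881, tight groups that stood well apart (log2 fold change 0.38 ± 0.0564, adjusted p 0.000139). SEC24D, its paralog, rose by 0.30, ARFGAP3, a GTPase-activating protein of the Golgi, by 0.36, and the GTPases ARF4 and SAR1B by 0.25 and 0.22. Of 27 genes of the unfolded protein response, 7 were called higher, where 3.9% of all genes were, with a median of 0.14. After GC smoothing 3 were, where 2.94% of all genes were. Among the 7 were the ER chaperone partners DNAJB9 (0.32) and DNAJC3 (0.24) and the degradation factors SEL1L (0.25), DERL2 (0.27) and HERPUD1 (0.21). Their calls were lost in 1, 4, 2, 3 and 6 of 14 alternatives, those of DNAJC3, DERL2 and HERPUD1 under GC smoothing too. Of 28 glycosylation enzymes, 6 rose and 1 fell, where 3.9% and 3.31% of all genes did, with a median of 0.19. After GC smoothing 7 were called higher and 2 lower, where 2.94% and 2.59% of all genes were. GALNT1, which starts O-linked glycans, was 234, 273 and 258 CPM in siWDR77_R1881, against 184, 188 and 191 CPM in siCtrl_R1881 (adjusted p 4.01e-05), while its relative GALNT2 fell by 0.31. PGM3 and GFPT1, enzymes of the hexosamine pathway that supplies these reactions, rose by 0.45 and 0.31.

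Of 28 genes of cholesterol synthesis and uptake, 7 were called higher and 1 lower, where 3.9% and 3.31% of all genes were. Without the vehicle library 35, 11 were called higher, and after GC smoothing 5. SCAP, the sterol sensor that escorts SREBP to the Golgi, averaged higher by 0.39 (403, 408 and 431 CPM in siWDR77_R1881, against 272, 332 and 346 CPM in siCtrl_R1881, adjusted p 0.00147). The synthesis enzymes SC5D, HMGCS1, FDFT1 and IDI1 rose by 0.29, 0.28, 0.28 and 0.42. Of 32 genes of fatty acid synthesis and storage, 4 rose, where 3.9% of all genes did, namely ECI2 (0.40), ACSL3, ME1 (0.30) and ACSL1 (0.22). After GC smoothing 2 were called, and the calls of ME1 and ACSL1 were lost in 4 and 7 of the 14 alternatives.

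**Figure D4:**
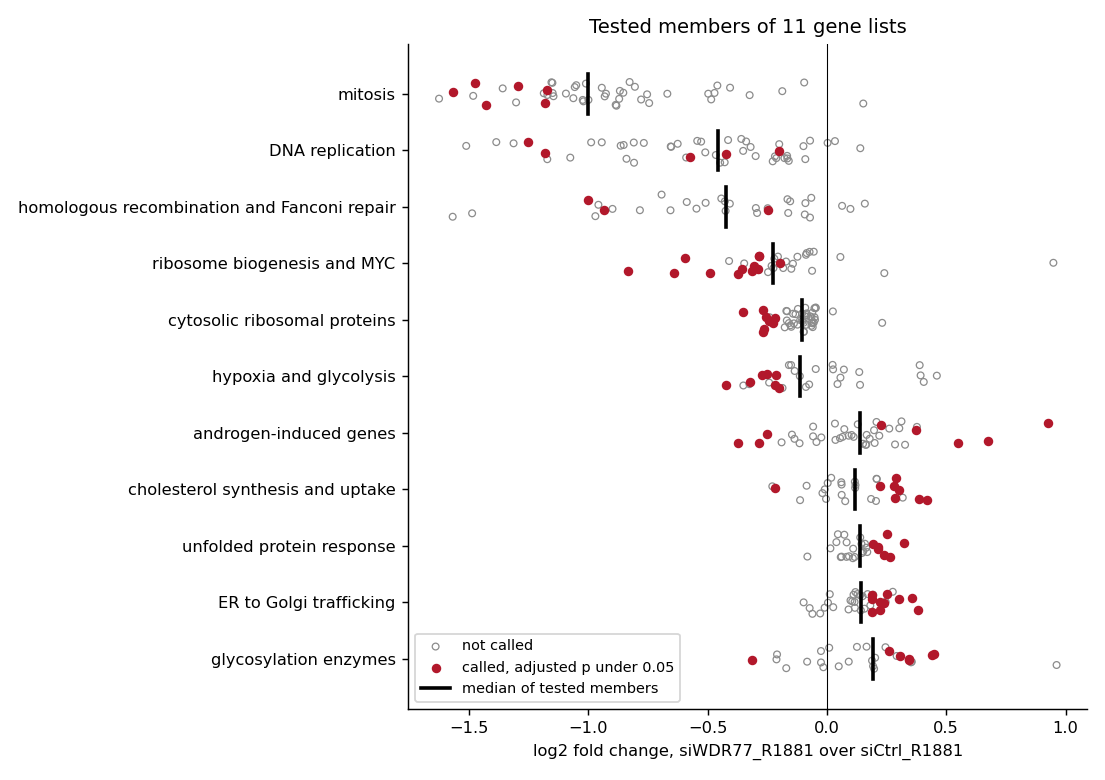
Log2 fold change of siWDR77_R1881 over siCtrl_R1881 for each tested member of 11 gene lists, with filled points for called genes and a bar at the median. The mitosis median lies at -1 and those of the secretory lists between 0.14 and 0.19.

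Of 29 genes of hypoxia and glycolysis, 7 were called lower, where 3.31% of all genes were, and 11 had positive values. The count was 11 without the vehicle library 35 and 4 after GC smoothing. ENO1, enolase, was 1102, 1063 and 994 CPM in siWDR77_R1881, against 1289, 1328 and 1333 CPM in siCtrl_R1881 (log2 fold change -0.32, adjusted p 0.00126), and pyruvate kinase PKM and lactate dehydrogenase LDHA fell by 0.27 and 0.42. PFKFB2, which sets the level of a glycolytic activator, is not in that list and rose by 0.42. Of 28 genes of polyamine and methionine metabolism, 6 fell and 1 rose (3.31% and 3.9% of all genes), and 9 had positive values: SHMT1, AHCY and the spermidine synthase SRM fell by 0.37, 0.28 and 0.38, and the spermine synthase SMS rose by 0.24. AHCY clears the by-product of methyl transfer. In the amino acid stress list, 4 of 28 fell, where 3.31% of all genes did, with 7 without library 35 and 2 after GC smoothing. They were the transporters SLC7A5 (-0.62) and SLC7A1 (-0.27), STC2 (-0.57) and PCK2 (-0.31), of which SLC7A5 and PCK2 lost their calls in 4 and 5 alternatives. VLDLR rose by 0.38.

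Of 26 apoptosis regulators, 3 were called lower (3.31% of all genes; 1 of 26 after GC smoothing), among them the pro-apoptotic BAX and BBC3, which fell by 0.34 and 0.58. Of 31 p53 target genes, a list that overlaps this one, 4 were called lower and 1 higher, where 3.31% and 3.9% of all genes were. After GC smoothing 2 were called lower and 0 higher. Among the 31, DDB2, a sensor of UV damage, fell by 0.55, and RRM2B, a ribonucleotide reductase subunit, rose by 0.27. The BAX and BBC3 calls were lost in 8 and 6 of the 14 alternatives, and that of RRM2B in 2, GC smoothing among them. Fibronectin (FN1), an adhesion protein of the extracellular matrix, was 434, 356 and 351 CPM in siWDR77_R1881, against 802, 568 and 576.5 CPM in siCtrl_R1881 (log2 fold change -0.77 ± 0.142, adjusted p 0.0123, lost in 3 alternatives). Of 24 genes of luminal keratins and junctions, 3 were called higher and 1 lower, where 3.9% and 3.31% of all genes were. The tight junction gene CLDN8 rose by 0.74, the luminal keratin gene KRT18 by 0.22 and OCLN by 0.21, while JUP fell by 0.24. The calls of KRT18, OCLN and JUP were lost in 3, 9 and 5 of the 14 alternatives. CD274, which encodes the checkpoint ligand PD-L1, was 22.9, 27.9 and 27.5 CPM in siWDR77_R1881, against 14.8, 15.1 and 14.7 CPM in siCtrl_R1881, with a log2 fold change of 0.81 ± 0.0997 (adjusted p 1.58e-05). Of 33 interferon and innate sensing genes, IFITM3 alone was called (-0.24, lost in 9 of 14 alternatives), where 3.31% of all genes were called lower. Of 15 genes of small RNA machinery, 2 were called in opposite directions, TNRC6B at 0.24 and XPO5 at -0.23, where 3.9% and 3.31% of all genes were called. Of 13 tested replication-dependent histone genes, H1-2, H2AC6 and H2BC21 rose by 0.39, 0.37 and 0.42, where 3.9% of all genes were called higher. Poly(A) libraries capture these RNAs only in part, since most histone mRNAs lack a tail.

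Among the partners of WDR77, few genes passed the test. PRMT5 was 76.5, 83.8 and 71.6 CPM in siWDR77_R1881, against 85.7, 85.0 and 86.0 CPM in siCtrl_R1881 (log2 fold change -0.15 ± 0.0681, adjusted p 0.215). Of the 10 methylosome genes, WDR77, the siRNA target itself, and SNRPB, an Sm protein, were called lower, where 3.31% of all genes were. SNRPB fell by 0.29 (adjusted p 0.00821). Of 9 other arginine methyltransferases, PRMT6 and PRMT1 were called lower, where 3.31% of all genes were. PRMT6, which methylates histone H3 at arginine, was 85.2, 88.3 and 77.9 CPM in siWDR77_R1881, against 118, 128 and 132 CPM in siCtrl_R1881 (log2 fold change -0.59 ± 0.0723, adjusted p 1.45e-05). PRMT1, the main enzyme of asymmetric arginine methylation, fell by 0.22, and its call was lost in 3 of 14 alternatives, GC smoothing among them. Among 29 SR proteins and hnRNPs, PTBP1 fell and SRSF5 rose by 0.28, where 3.31% of all genes were called lower and 3.9% higher. Of 21 Sm core and SMN complex genes, SNRPB alone was called, the same gene as in the methylosome list.

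Without hormone WDR77 was also lower after the siRNA, and fewer genes passed the test. WDR77 was 11.3, 14.9 and 13.3 CPM in siWDR77_vehicle, against 41.7, 46.7 and 46.5 CPM in siCtrl_vehicle (log2 fold change -1.76 ± 0.0926). That comparison called 122 genes higher (0.682%) and 151 lower (0.844%), 1.53% in all, a count that ranged from 91 to 478 as single libraries were left out, with 478 without siCtrl_vehicle 35, 143 without siCtrl_vehicle 21, 105 without siWDR77_vehicle 37 and 91 without siWDR77_vehicle 9. The arms share no library, and 166 genes were called in both, which is 12.9% of the 1291 genes called with R1881 and 60.8% of the 273 called with vehicle. Of the 166, 72 were higher and 93 lower in both, and 1, NDRG1, was lower with R1881 and higher with vehicle. Of all 1291 genes, 1130 had the same sign in the vehicle arm. The same-sign share over all genes tested was not counted. Across 17893 genes the log2 fold changes of the arms had a Pearson correlation of 0.12. Both arms also had a trend with GC content, as given below.

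The test of the difference between the arms found no gene at an adjusted p under 0.05 by edgeR, with 1484 genes at an unadjusted p under 0.05, 54 called by DESeq2 and 43 by edgeR without the vehicle library 35. Thus a call with R1881 alone does not show a difference between the arms. The gene with the smallest p was PFKFB2, with a log2 fold change of 0.42 with R1881 and of -0.15 with vehicle (difference 0.57 ± 0.0966, adjusted p 0.0569). NDRG1, a cell stress gene induced by androgen, had -0.25 with R1881 and 0.31 with vehicle (difference -0.56 ± 0.0973, adjusted p 0.0569). The next 6 were CD274, SRD5A1, GLUL, PGM3, SIPA1L2 and ATP1B1, each with an adjusted p of 0.0889. SRD5A1, the steroid reductase that makes dihydrotestosterone, had 0.06 with R1881 and -0.44 with vehicle. CRIM1 differed by 1.47 ± 0.344 (adjusted p 0.178). The mitosis list had a median of -1 with R1881 and of 0.00 with vehicle, where the low library 35 is one of the 3 controls.

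In the other study, the P3 peptide with R1881 was compared with the empty vector with R1881. There WDR77 was higher in P3_R1881, by 0.64 on the log2 scale. Whether reads of the peptide construct were counted on WDR77 was not tested. The count headers of the P3_R1881 libraries also carry the word siRNA, and they were matched to the labels by sample number and hormone. That comparison called 6572 of 17772 genes (37%), so that overlap with it is large for any list. It shared 791 calls, 61.3% of the 1291 here and 12% of the 6572 there, and 653 of the 791 had the opposite direction. The mitosis list had a median of 1.03 there, with 45 of 47 called higher in P3_R1881, and the ER to Golgi list had -0.41. SETD7 was lower there too, by 0.52, and PTBP2 higher, by 0.75.

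Base composition moved with the groups. Genes called higher after knockdown had a median transcript GC content of 42.7%, genes called lower one of 57.5%, and all genes tested one of 48.7%. Across 17613 genes the Spearman correlation of the log2 fold change with GC content was -0.23, and in the vehicle arm it was -0.21; genes within a library are not independent replicates. Per library, the correlation of a gene's deviation from its mean with GC content was 0.08, -0.15 and -0.20 in siWDR77_R1881, against 0.13, 0.14 and 0.10 in siCtrl_R1881. When this trend was smoothed out of each library, 526 genes were called higher (2.94%) and 463 lower (2.59%), and 790 of the 1291 calls remained. The trend was taken over all genes and was not fitted within any gene list. The mitosis list has a median GC content of 43.2%, below that of all genes. Its median log2 fold change was -1.02 after smoothing, with 4 of 47 called lower. The ribosome biogenesis and MYC list had 13 of 33 called lower after smoothing, and the ER to Golgi list, with fewer calls after smoothing, has a median GC content of 44.9%. Of the hormone-induced genes 125 were called higher and 9 lower after smoothing, and of the hormone-lowered genes 18 higher and 75 lower. The part of base composition in the remaining results was not tested.

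**Figure D5:**
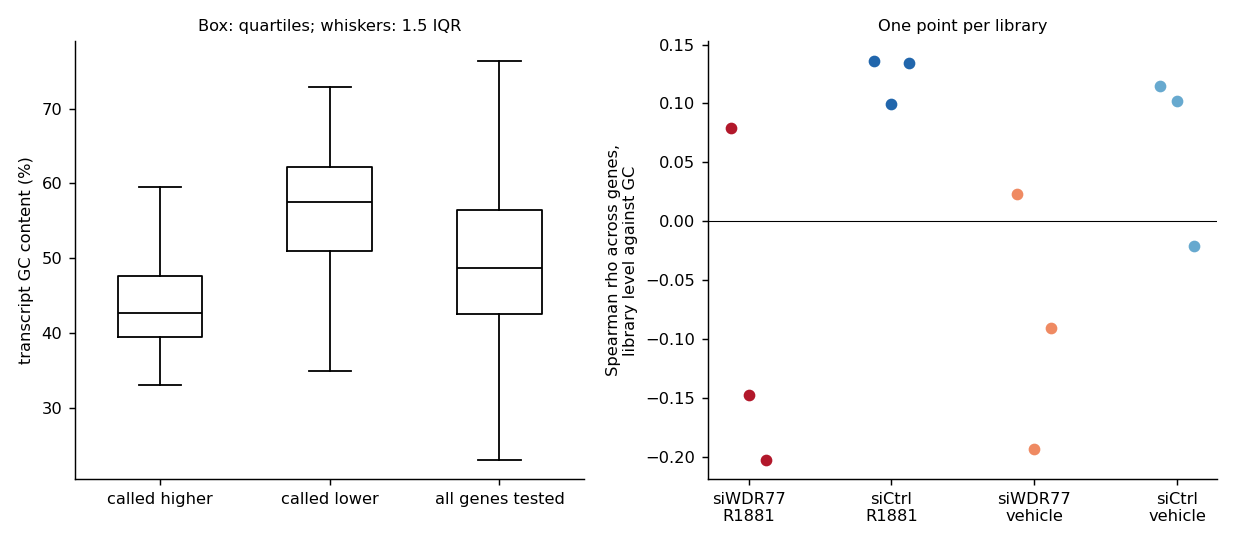
Left, transcript GC content (percent) of genes called higher, genes called lower and all genes tested, with medians of 42.7%, 57.5% and 48.7%. Right, Spearman correlation across 11397 genes of each library's level, relative to the mean of 12 libraries, with GC content, where 2 of 3 siWDR77_R1881 libraries lie below 0 and all 3 siCtrl_R1881 libraries above it.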

How the data were processed

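One table of raw counts per gene, with 60649 features and no scaling, was deposited by the authors. The submitters' processing notes name bcl2fastq 2.20, STAR 2.7.9a, Subread 1.6.4 (featureCounts) and the build GRCh38.p7; strand setting, multi-mapping rule and annotation release were not given in the sources used here. Poly(A) libraries were made, per the labels. From these counts, edgeR 4.0.16 in R 4.3.3 fitted the 12 libraries of the siRNA study with TMM scaling, filterByExpr by group and 1 mean per group, and the robust quasi-likelihood F test gave p-values, adjusted by Benjamini-Hochberg over all genes tested. A gene is called at an adjusted p under 0.05. SE comes from the F statistic, and the study of P3 and EV was fitted separately. The fits were tested on simulated counts. CPM uses TMM-scaled library sizes.

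Genes were named by rule: WDR77, ATP5PB, KLK3, KLK2, TMPRSS2 and FKBP5; in each direction, the 15 called genes that changed most, given 1 CPM and libraries that did not overlap; the 5 smallest adjusted p of each of 41 lists; and the 8 smallest p of the difference between arms. Exceptions are marked in the text, and some genes that the rule names are not reported here. The members and lists were chosen with earlier results of these data known. Of 1124 listed symbols, 1119 were found. Sample numbers are not stated to pair cultures. Same-run libraries of siWDR77_R1881 and siCtrl_R1881 deviated together with r of 0.02 to 0.03, so no block was used. Replicates all differed beyond sampling noise. The limit that a count of 0 allows covers counting error only. The p-values rest on the spread between the cultures labelled biological triplicates. In the main fits that spread was estimated over all 12 libraries of a study, for the siRNA study with library 35 included. GC content is that of the longest coding transcript in GENCODE 29, for 98.4% of genes. The alternatives were DESeq2 1.42.0, RLE scaling, no filter, a replicate block, the 6 libraries alone, all 24 libraries and each library of the groups compared left out. GC smoothing and leaving out the vehicle library 35 were added after the data were seen.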

Additional observations from a re-analysis of the deposited data

How the results depend on the processing

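The 593 lower calls became 1052 on the 6 libraries alone, and calls ranged, as single libraries were left out, from 586 to 1983 in all, 309 to 877 higher and 277 to 1106 lower. The vehicle comparison, with 273 calls, gave 422 with no filter, 491 with all 24 libraries, 127 on its 6 libraries, 441 by DESeq2 and 91 to 478 with a library left out. The difference between arms, with 0 calls, gave 112 with no filter, 16 with the replicate block, 40 with all 24 libraries, 54 by DESeq2 and 0 to 43 with a library left out. Lower mitosis genes, 6, became 23 with all 24 libraries, 39 on 6, 27 by DESeq2 and 2 to 39 with a library left out. Lower replication genes, 5, became 17 with no filter, 8 with the replicate block, 24 with all 24 libraries, 33 on 6, 24 by DESeq2 and 1 to 33. Hormone-lowered genes called lower, 78, became 137, 156, 207 and 169 under no filter, all 24, the 6 and DESeq2, and 25 to 230 with a library left out; those called higher ranged from 9 to 26. Hormone-induced genes called higher ranged from 86 to 192, and those called lower were 21 on the 6 libraries and 4 to 17 with a library left out. The cause was not tested. The replicate block gave 1445 calls in the main comparison and 335 in the vehicle arm. Of 169 named called genes, 72 kept their call in every alternative run, 97 lost it in at least 1 and none reversed. Depth limits genes under about 1 CPM.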
